A study of Schizosaccharomyces pombe with 36 samples.

Results

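Transcripts of fission yeast (Schizosaccharomyces pombe) cells that lack the tra1 gene (tra1Δ, written tra1D in the labels) were compared with those of an isogenic wild-type (WT) strain. These are 3 libraries each, chosen by their genotype labels, and make up 6 of the 36 libraries of the deposited table of read counts, which holds 12 groups of 3. Both strains were grown in rich medium (YES) to mid-logarithmic phase with no drug or inducer, and polyadenylated RNA was sequenced as stranded libraries. The labels give 1 strain number per genotype, and the study describes the 3 samples as independent biological samples, so that p-values measure the spread between cultures of 1 strain each. For comparison, 3 further strains grown in the same way were used: tra1-Sptra2 and tra1-Sctra1, hybrids in which a stretch of tra1 was exchanged for the matching stretch of fission yeast tra2 or of budding yeast TRA1, and spt20Δ, which lacks another SAGA subunit gene. In purified SAGA the study found normal levels of the tra1-Sctra1 hybrid protein and no detectable tra1-Sptra2 hybrid protein. The spt20-HITΔ strain, a partial deletion within spt20 on a PK-tagged allele, is given where all SAGA strains are shown together.

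SAGA is a multi-subunit co-activator that acetylates and deubiquitinates histones at promoters and helps load the TATA-binding protein. Tra1 is its largest subunit, a catalytically inactive relative of the phosphatidylinositol 3-kinase-related kinases (PIKKs), and is the surface that transcriptional activators contact. In most eukaryotes 1 such protein serves both SAGA and the NuA4 histone acetyltransferase, whereas S. pombe has a pair of paralogues, with Tra1 in SAGA and Tra2 in NuA4. Cells without tra1 are viable, whereas those without tra2 are not.

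Total counts ranged between 5738138 and 7295107 in tra1Δ libraries and between 6208529 and 8101004 in WT libraries. Within each group the counts of any 2 libraries differed by more than sampling noise (chi-square per degree of freedom of 8.49 to 29.1), and none was a duplicate. WT replicate 3 stood furthest from its group (chi-square per degree of freedom of 14.1 and 29.1 against the other WT libraries, which differed from each other by 8.79). Levels are given as CPM, read counts scaled to a common library size (TMM over all 36 libraries), in the order of replicates 1, 2 and 3. Log2 fold changes are tra1Δ over WT, with ± giving the standard error of the edgeR quasi-likelihood test fitted on the 6 libraries, and p-values adjusted by the Benjamini-Hochberg method over all genes tested. For a single gene, the two-sided exact permutation p of such groups has a floor of 0.1. The targeted gene was checked first. The libraries held 5, 2 and 2 counts of tra1 (SPBP16F5.03c) in tra1Δ, against 771, 704 and 561 in WT, which leaves 0.461% of the WT level (95% exact interval 0.21 to 0.876, counting error only).

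Called genes are those with an adjusted p up to 0.01 that differed 1.5-fold or more. In tra1Δ 121 of 4899 genes tested were called (2.47%), 40 of them higher than in WT (0.816%) and 81 lower (1.65%), tra1 included. The median log2 fold change over all genes tested was 0.00. Of the called genes, 61 differed by at least 2-fold, and all 121 had libraries that did not overlap between the strains, as did 1595 of the 4899 genes tested. With adjusted p up to 0.01 and no limit on the fold, 179 genes passed (63 higher and 116 lower). The count moved with single libraries: 67 genes were called without WT replicate 1, 183 without WT replicate 3, 76 without tra1Δ replicate 2 and 68 without tra1Δ replicate 3. The calls of 56 genes, 18 higher and 38 lower, were kept in each of the 6 fits with 1 library left out, and 120 of the 121 genes were also called with DESeq2. Genes lower in tra1Δ had a median WT level of 126 CPM and genes higher in tra1Δ one of 38.7 CPM, against 82.2 CPM over all genes tested. The WT level is part of the fold change by which genes were called, so this contrast may come in part from the choice. Chromosomes I, II and III held 43.8, 36.4 and 19.8% of the called genes and 45.4, 36.6 and 18.0% of all genes tested.

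**Figure D1:**
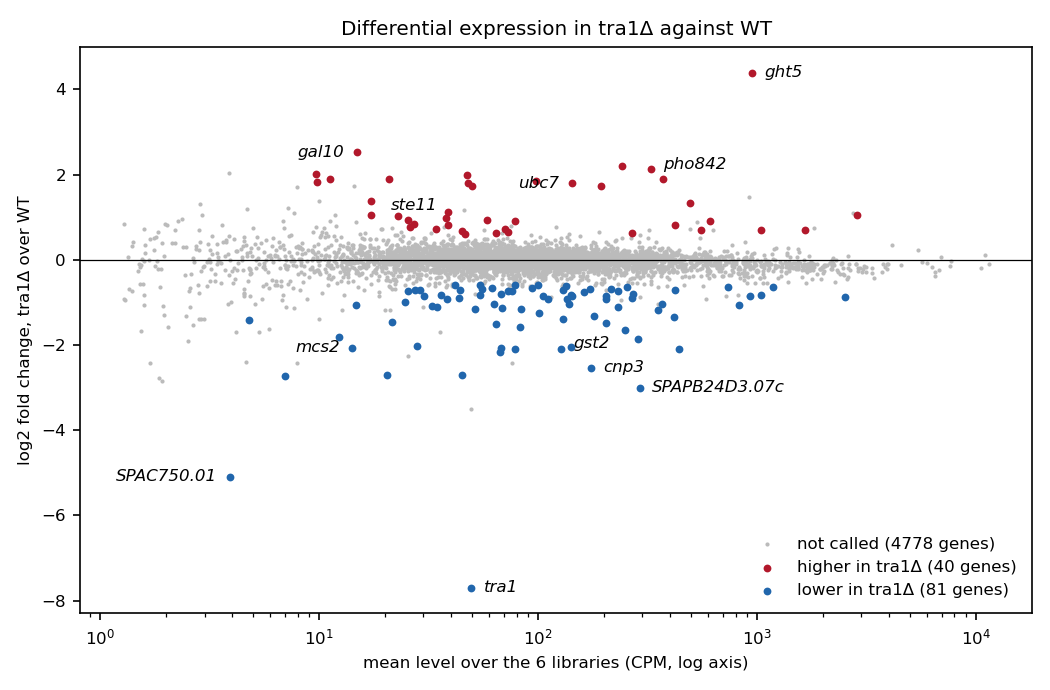
Log2 fold change in tra1Δ over WT (vertical axis) against the mean level over the 6 libraries in CPM (horizontal log axis), 1 point per gene tested. Red points mark the 40 genes called higher, blue points the 81 called lower and grey points the rest, and tra1 itself lies lowest at −7.69.

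Sorted by the words of their RefSeq product descriptions, a grouping made after the values were seen, 13 of the 80 genes called lower other than tra1 (16.2%) and 7 of the 40 called higher (17.5%) encode oxidoreductases, against 4.47% of all genes tested. Transporters made up 9 of 80 (11.2%) and 5 of 40 (12.5%), against 4.2% of all genes tested. The genes named below follow a rule that takes the 12 largest rises and falls, called members of gene lists, SAGA subunits, neighbours of tra1 and adjacent called genes, 75 in all. Other called genes that are named, such as eng1, dea2 or tsp0, were chosen after their values were seen.

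Genes of the redox enzymes obr1, gst2 and SPBC23G7.10c were among the 12 largest falls. The mRNA of obr1, an NAD(P)H quinone dehydrogenase that the oxidative stress factor Pap1 is known to activate, stood at 157, 202 and 147 CPM in tra1Δ, against 803, 583 and 763 CPM in WT (log2 fold change −2.08 ± 0.15, adjusted p = 4.91e-05). The glutathione S-transferase gene gst2 stood at 35.9, 57.1 and 51.9 CPM in tra1Δ, against 252, 149 and 222 CPM in WT (log2 fold change −2.10 ± 0.21, adjusted p = 0.000295). SPBC23G7.10c, annotated as an NADH-dependent flavin oxidoreductase, stood at 5.15, 5.24 and 5.81 CPM in tra1Δ, against 39.1, 43.7 and 23.8 CPM in WT (log2 fold change −2.71 ± 0.25, adjusted p = 0.000209). In these 3 genes every tra1Δ library lay below every WT library, and each call was kept in all fits that left out a library. SPAPB24D3.08c, an NADP-dependent oxidoreductase gene, stood at 51.0, 56.0 and 48.5 CPM in tra1Δ, against 122, 101 and 123 CPM in WT (log2 fold change −1.15 ± 0.10, adjusted p = 0.00013). It lies next to the uncharacterized gene SPAPB24D3.07c on the same strand, which had 54.5, 48.0 and 89.7 CPM in tra1Δ, against 534, 682 and 345 CPM in WT (log2 fold change −3.01 ± 0.28, adjusted p = 0.000227). Here too the libraries of the strains did not overlap. The nitric oxide dioxygenase gene yhb1 was called lower (log2 fold change −1.38, adjusted p = 0.000151), and the gene of the peroxiredoxin Tpx1, which reduces hydrogen peroxide, was called higher (log2 fold change 0.70, adjusted p = 0.00288).

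Of the 30 tested genes of the glutathione and redox list, obr1, gst2 and tpx1 were called, 2 lower and 1 higher (2 to 5 calls under the alternatives), and the list's median log2 fold change was 0.00, as over all genes. Of its members, 15 lay above 0 and 15 below. The catalase gene ctt1 and the glutathione peroxidase gene gpx1, members of the core stress list, had log2 fold changes of 0.49 (adjusted p = 0.0058) and 0.56 (adjusted p = 0.00111), past the p threshold but under the fold. The call of tpx1 was lost without tra1Δ replicate 1 or 2 or WT replicate 1 (adjusted p up to 0.0252).

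**Figure D2:**
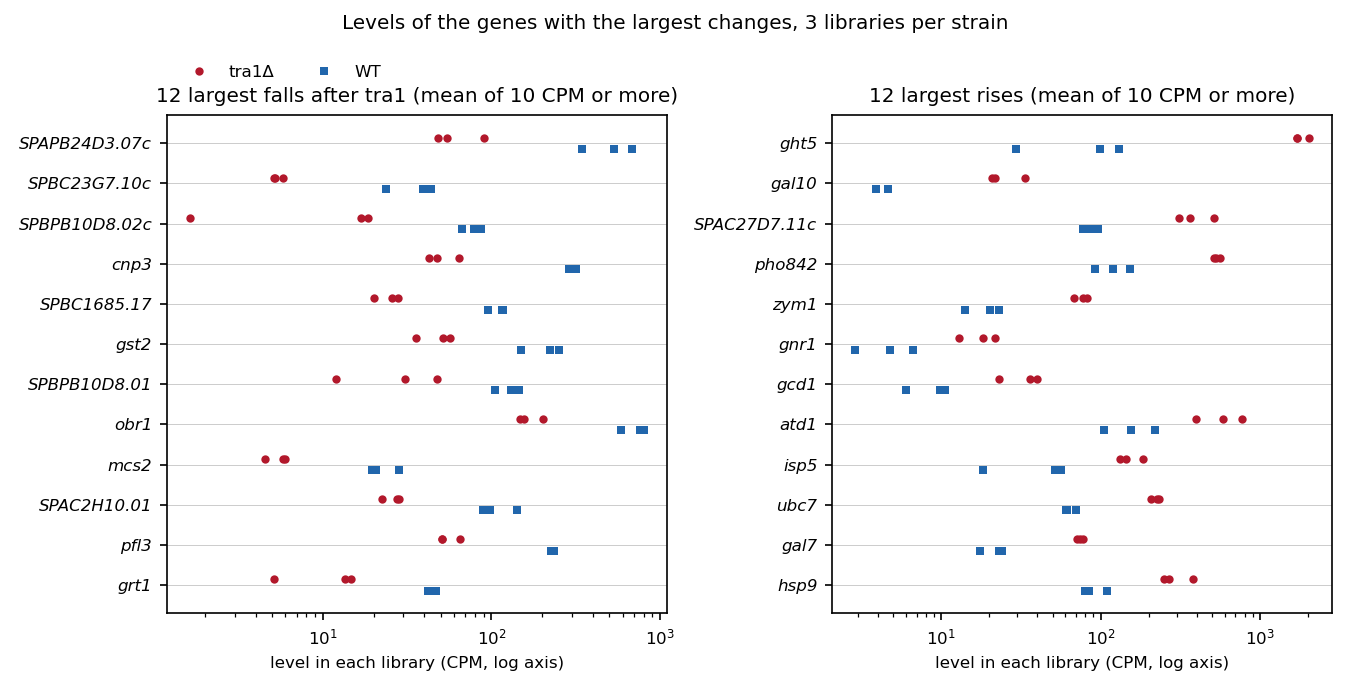
Levels in CPM (horizontal log axes) of the 12 largest falls after tra1 (left) and the 12 largest rises (right) among called genes that average 10 CPM or more, with 3 tra1Δ libraries as red circles and 3 WT libraries as blue squares. In all 24 genes the circles and squares do not overlap, which was a condition of their choice. The tra1Δ libraries of SPBPB10D8.02c, SPBPB10D8.01 and grt1 spread more widely than those of cnp3 or gst2.

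The gene for Cnp3, the fission yeast homologue of the kinetochore protein CENP-C, had 47.5, 63.9 and 42.8 CPM in tra1Δ, against 289, 286 and 319 CPM in WT (log2 fold change −2.54 ± 0.13, adjusted p = 3.55e-06). The next gene, abp2, which encodes a protein that binds replication origins, is transcribed away from cnp3 and starts 2198 bases from it in the reference annotation. It had 39.2, 44.3 and 41.2 CPM in tra1Δ, against 123, 145 and 106 CPM in WT (log2 fold change −1.58 ± 0.12, adjusted p = 4.91e-05). Both fell in every tra1Δ library, and both calls were kept in all fits that left out a library. The genes of the centromeric histone H3 variant Cnp1 and of the kinetochore proteins Mis12 and Mal2, chosen after the values were seen, had log2 fold changes of −0.46, −0.22 and −0.04 and were not called (adjusted p = 0.0491, 0.201 and 0.827).

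Among the other large falls were SPBC1685.17, which is uncharacterized, SPAC2H10.01, annotated as a transcription factor, and pfl3, a cell-surface glycoprotein of the flocculin family. SPBC1685.17 stood at 25.7, 27.8 and 20.1 CPM in tra1Δ, against 115, 116 and 95.6 CPM in WT (log2 fold change −2.16 ± 0.13, adjusted p = 1.22e-05). The downstream gene fhn1, which encodes an eisosome protein of the plasma membrane, stood at 181, 133 and 108 CPM in tra1Δ, against 273, 281 and 248 CPM in WT (log2 fold change −0.92 ± 0.15, adjusted p = 0.0057). SPAC2H10.01 stood at 27.4, 28.3 and 22.4 CPM in tra1Δ, against 97.3, 89.5 and 141 CPM in WT (log2 fold change −2.06 ± 0.18, adjusted p = 0.000145). All these genes were lower in each tra1Δ library than in any WT library. The level of pfl3 was 50.6, 51.1 and 64.7 CPM in tra1Δ, against 236, 224 and 227 CPM in WT (log2 fold change −2.03 ± 0.09, adjusted p = 2.15e-06), and since 33.7% of its 50-base windows have a copy elsewhere in the genome its counts may include reads of relatives. The call of fhn1 was lost without tra1Δ replicate 2 or 3 or WT replicate 1 (adjusted p up to 0.0391).

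Of 15 tested flocculin genes and regulators, pfl3 and cbf12 were called lower and none higher (list median −0.02, of either sign, and 1 to 4 calls under the alternatives). The CSL-family transcription factor gene cbf12, which promotes cell adhesion, had 35.9, 42.9 and 45.1 CPM in tra1Δ, against 100.2, 89.2 and 66.0 CPM in WT (log2 fold change −1.04 ± 0.15, adjusted p = 0.00253). Outside the list, and chosen after their values were seen, eng1 and cbm1 were also lower. The endo-1,3-beta-glucanase gene eng1, whose product degrades the primary septum, had 157, 168 and 119 CPM in tra1Δ, against 286, 355 and 311 CPM in WT (log2 fold change −1.10 ± 0.13, adjusted p = 0.000744). The secreted cellulose-binding domain gene cbm1 stood at 266, 201 and 242 CPM in tra1Δ, against 661, 625 and 516 CPM in WT (log2 fold change −1.34 ± 0.12, adjusted p = 0.000227). For cbf12, eng1 and cbm1 alike, every tra1Δ library lay below every WT library. The call of cbf12 was lost without tra1Δ replicate 1, 2 or 3 or WT replicate 1 (adjusted p up to 0.0178).

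Genes of malate transport and use were called in both directions. The plasma membrane malate permease gene mae1 had 689.6, 636 and 653 CPM in tra1Δ, against 1239, 1372 and 971 CPM in WT (log2 fold change −0.85 ± 0.12, adjusted p = 0.00253). The malic enzyme gene mae2 had 1770.5, 1942 and 1619.6 CPM in tra1Δ, against 3456, 3832 and 2596 CPM in WT (log2 fold change −0.88 ± 0.14, adjusted p = 0.00494). Both were lower in every tra1Δ library, while mdh1, a malate dehydrogenase gene, was higher, with 342, 304 and 338 CPM in tra1Δ, against 209, 225 and 204 CPM in WT (log2 fold change 0.63 ± 0.07, adjusted p = 0.000811). Of 39 genes of the tricarboxylic acid cycle and respiration, mdh1 was the one called, and the median of the list was 0.05. Calls were lost for mae1 without tra1Δ replicate 1, 2 or 3 or WT replicate 1 (adjusted p up to 0.0209), mae2 without tra1Δ replicate 1, 2 or 3 or WT replicate 1 (adjusted p up to 0.0351) and mdh1 without WT replicate 1 (adjusted p up to 0.01).

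Arginine metabolism held calls of opposite sign. The arginine and lysine permease gene cat1 had 78.1, 76.8 and 73.2 CPM in tra1Δ, against 135, 127 and 175 CPM in WT (log2 fold change −0.93 ± 0.11, adjusted p = 0.00103). The arginase gene car1 had 31.6, 37.9 and 26.1 CPM in tra1Δ, against 73.6, 78.6 and 60.2 CPM in WT (log2 fold change −1.16 ± 0.14, adjusted p = 0.00105). The ornithine transaminase gene car2, whose product acts after arginase, had 2305, 1815 and 2039 CPM in tra1Δ, against 1185, 1223 and 1413 CPM in WT (log2 fold change 0.70 ± 0.12, adjusted p = 0.00532). Thus the permease and arginase genes were lower and the transaminase gene higher, each without overlap between the strains. The permease gene aat1 was lower (−0.74, adjusted p = 0.00326), whereas the permease gene isp5 was higher, with 145, 183 and 132 CPM in tra1Δ, against 51.4, 56.0 and 18.3 CPM in WT (log2 fold change 1.86 ± 0.29, adjusted p = 0.00409). The proline dehydrogenase gene put1 was also higher, with 786, 761 and 847 CPM in tra1Δ, against 449, 491 and 339 CPM in WT (log2 fold change 0.91 ± 0.13, adjusted p = 0.002). Across the 25 tested nitrogen and permease genes, 2 were called higher (isp5 and put1) and 3 lower (cat1, aat1 and the malate permease gene mae1). Outside this list, car1 and car2 were chosen after their values were seen. Under the alternatives the list held 0 to 7 calls, with 0 without tra1Δ replicate 3 and 1 without tra1Δ replicate 2 or WT replicate 1. Its median of −0.11 took either sign. Not kept under every alternative were the calls of cat1 without tra1Δ replicate 3 (adjusted p up to 0.0106), car2 without tra1Δ replicate 1, 2 or 3 or WT replicate 1 or 2 or in a single fit of all 36 libraries (adjusted p up to 0.0459), aat1 without tra1Δ replicate 2 or 3 or WT replicate 1 or in a single fit of all 36 libraries (adjusted p up to 0.0262), isp5 without tra1Δ replicate 1, 2 or 3 or WT replicate 1 or in a single fit of all 36 libraries (adjusted p up to 0.0259) and put1 without tra1Δ replicate 1, 2 or 3 or WT replicate 1 (adjusted p up to 0.0164).

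Genes annotated as inorganic phosphate transporters also split. The level of pho842 was 559, 529 and 513 CPM in tra1Δ, against 119.9, 92.2 and 153 CPM in WT (log2 fold change 2.14 ± 0.15, adjusted p = 4.91e-05), higher in every tra1Δ library. The level of pho841 was 107, 109 and 108 CPM in tra1Δ, against 296, 246 and 362 CPM in WT (log2 fold change −1.47 ± 0.12, adjusted p = 0.00013), and that of pho843 was 102, 97.9 and 81.2 CPM in tra1Δ, against 181, 158 and 193 CPM in WT (log2 fold change −0.92 ± 0.10, adjusted p = 0.000581), both lower in every tra1Δ library. All 3 calls were kept in every fit that left out a library. The main high-affinity transporter gene pho84, one of the genes that the study names, had 1426, 1133 and 1339 CPM in tra1Δ, against 1217, 1325 and 745 CPM in WT and was not called (log2 fold change 0.25 ± 0.19, adjusted p = 0.409), with overlapping groups. None of the 7 tested phosphate-responsive genes was called by edgeR or DESeq2, and 1 was called without WT replicate 2. An unadjusted p below 0.05 was found for 2 (28.6%), against 27.0% of all genes tested. The acid phosphatase gene pho1 had a log2 fold change of 0.90 (adjusted p = 0.0349).

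Other genes called lower, chosen after their values were seen, included dea2, met17, sua1, hem1 and git3, with no list of their pathways tested. The adenine deaminase gene dea2 had 116, 112 and 133 CPM in tra1Δ, against 384, 399 and 353 CPM in WT (log2 fold change −1.65 ± 0.08, adjusted p = 3.55e-06). The homocysteine synthase gene met17 and the sulfate adenylyltransferase gene sua1 had log2 fold changes of −1.26 (adjusted p = 0.00294) and −0.64 (adjusted p = 0.00804), and hem1, whose product starts haem synthesis, had −0.70 (adjusted p = 0.00126). The gene of the glucose receptor Git3 had 36.6, 47.3 and 44.3 CPM in tra1Δ, against 103, 99.1 and 79.8 CPM in WT (log2 fold change −1.13 ± 0.12, adjusted p = 0.000476). The calls of dea2 and git3 were kept in all fits that left out a library. Those lost were met17 without tra1Δ replicate 1, 2 or 3 (adjusted p up to 0.0248), sua1 without tra1Δ replicate 2 or 3 or WT replicate 1 or 2 (adjusted p up to 0.0497) and hem1 without tra1Δ replicate 2 or 3 or WT replicate 1 (adjusted p up to 0.0123).

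Also called lower, and chosen after their values were seen, were mot1, mik1, gap1, pac2, hsr1 and jmj1. The gene of Mot1, which removes the TATA-binding protein from DNA, had 134, 146 and 119.6 CPM in tra1Δ, against 208, 200.2 and 232 CPM in WT (log2 fold change −0.67 ± 0.09, adjusted p = 0.00136). The gene of Mik1, a kinase that inhibits Cdc2 and so delays mitosis, had 20.4, 21.5 and 22.3 CPM in tra1Δ, against 36.5, 48.0 and 32.2 CPM in WT (log2 fold change −0.86 ± 0.15, adjusted p = 0.00769). The gene of Gap1, which inactivates Ras1, had 40.0, 41.5 and 45.4 CPM in tra1Δ, against 71.8, 60.3 and 73.5 CPM in WT (log2 fold change −0.69 ± 0.10, adjusted p = 0.00282). In each, all tra1Δ libraries were below all WT libraries. The transcription regulator genes pac2 and hsr1 had log2 fold changes of −0.80 (adjusted p = 0.000553) and −0.83 (adjusted p = 0.00178), and the demethylase-family gene jmj1 had −0.74 (adjusted p = 0.00689). The call of pac2 was kept in all fits that left out a library. Those lost were mot1 without tra1Δ replicate 1 (adjusted p up to 0.0111), mik1 without tra1Δ replicate 1, 2 or 3 or WT replicate 1 (adjusted p up to 0.039), gap1 without tra1Δ replicate 1, 2 or 3 or WT replicate 1 (adjusted p up to 0.0193), hsr1 without tra1Δ replicate 1, 2 or 3 or WT replicate 1 (adjusted p up to 0.0173) and jmj1 without tra1Δ replicate 1, 2 or 3 or WT replicate 1 or 2 or with the replicate block (adjusted p up to 0.0318).

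The largest rise was in ght5, which encodes the high-affinity glucose transporter. It stood at 1709, 1702 and 2037 CPM in tra1Δ, against 98.9, 131 and 29.6 CPM in WT (log2 fold change 4.39 ± 0.43, adjusted p = 0.000287). Every tra1Δ library was far above every WT library, and the call was kept in all fits that left out a library. A high level was not particular to tra1Δ: the tra1-Sctra1 libraries had 1972, 1643 and 1464 CPM. Of 6 hexose transporter genes tested, ght5 was the one called, and the others lay between −0.52 for ght2 (adjusted p = 0.0039) and 0.55 for ght1 (adjusted p = 0.119). In ght5 29.6% of the 50-base windows have a copy elsewhere. The level of ght5 also differed between libraries of 1 strain elsewhere in the table: 2639, 162 and 132 CPM in creER with DMSO, 1307, 69.9 and 64.3 CPM in tra2-CKO with DMSO and 892, 1254 and 124 CPM in spt20-HITΔ. The part of such variation between cultures in the tra1Δ difference was not tested.

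Of the genes for galactose use, gal10 and gal7 were among the 12 largest rises. The 3 enzymes of the Leloir pathway, which converts galactose to glucose 1-phosphate, are encoded close together near the right end of chromosome II. The level of gal10 was 21.7, 33.3 and 20.9 CPM in tra1Δ, against 4.63, 3.87 and 4.65 CPM in WT (log2 fold change 2.52 ± 0.24, adjusted p = 0.000235), and that of gal7 was 74.7, 71.4 and 77.8 CPM in tra1Δ, against 22.9, 24.1 and 17.5 CPM in WT (log2 fold change 1.80 ± 0.12, adjusted p = 2.5e-05). The galactokinase gene gal1 had 25.7, 31.9 and 23.1 CPM in tra1Δ, against 14.5, 19.5 and 13.96 CPM in WT and was not called (log2 fold change 0.75 ± 0.17, adjusted p = 0.0255). All 3 were higher in every tra1Δ library than in any WT library, and the calls of gal10 and gal7 were kept in all fits that left out a library. The invertase gene inv1, which hydrolyses sucrose, had 9.84, 7.85 and 18.6 CPM in tra1Δ, against 3.31, 4.15 and 3.82 CPM in WT and was not called (log2 fold change 1.72 ± 0.34, adjusted p = 0.0135).

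Of the 12 tested galactose and glucose-repressed genes, gal7, gal10 and gut2 were called higher and agl1 and adh8 lower, and 9 lay above 0 (list median 0.28, with medians of 0.24 to 0.32 and 3 to 7 calls under the alternatives). The glycerol 3-phosphate dehydrogenase gene gut2 had 31.2, 34.9 and 37.4 CPM in tra1Δ, against 16.9, 20.5 and 21.3 CPM in WT (log2 fold change 0.83 ± 0.13, adjusted p = 0.00384). The maltase gene agl1 had 18.5, 21.3 and 23.2 CPM in tra1Δ, against 44.0, 44.5 and 45.9 CPM in WT (log2 fold change −1.08 ± 0.11, adjusted p = 0.000379). The alcohol dehydrogenase gene adh8 had 26.2, 25.8 and 25.5 CPM in tra1Δ, against 52.1, 52.0 and 34.4 CPM in WT (log2 fold change −0.84 ± 0.16, adjusted p = 0.00981). None of the 13 tested glycolysis genes was called with edgeR. An unadjusted p below 0.05 was found for 4 (30.8%), against 27.0% of all genes tested. DESeq2 and the fit without WT replicate 3 each called 1 higher and 1 lower. The replicate block, the single fit of all 36 libraries and the fit without WT replicate 2 each called 1 higher. The 13 glycolysis genes lay between −1.39 and 1.48, 7 above 0 and 6 below. Of them, gpd3, a glyceraldehyde 3-phosphate dehydrogenase gene, had 1320.1, 1586 and 1162 CPM in tra1Δ, against 465, 738 and 263 CPM in WT (log2 fold change 1.48 ± 0.30, adjusted p = 0.0137). Of the fermentation genes, the aldehyde dehydrogenase gene atd1 had 774, 398 and 586 CPM in tra1Δ, against 155, 105 and 219 CPM in WT (log2 fold change 1.89 ± 0.28, adjusted p = 0.00288). The tra1Δ and WT libraries did not overlap for gut2, agl1, adh8, gpd3 or atd1. Calls were lost for gut2 without tra1Δ replicate 1, 2 or 3 or WT replicate 1 (adjusted p up to 0.0279), adh8 without tra1Δ replicate 1, 2 or 3 or WT replicate 1 or 2 (adjusted p up to 0.0527) and atd1 without tra1Δ replicate 1 or 3 or WT replicate 1 or in a single fit of all 36 libraries (adjusted p up to 0.0185).

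The gene of the zinc metallothionein Zym1 had 68.3, 82.0 and 77.0 CPM in tra1Δ, against 20.1, 23.1 and 14.1 CPM in WT (log2 fold change 1.98 ± 0.15, adjusted p = 6.53e-05), while the other 5 genes of the zinc list lay between −0.47 for fet4 (adjusted p = 0.0452) and −0.08 for zrt1 (adjusted p = 0.488) and were not called. SPAC27D7.11c, a But2 family gene of which 21.1% of windows are shared, had 514, 311 and 364 CPM in tra1Δ, against 96.4, 86.1 and 77.1 CPM in WT (log2 fold change 2.20 ± 0.17, adjusted p = 7.63e-05). The gene tsp0, which encodes a TspO-like protein, had 75.9, 82.0 and 72.3 CPM in tra1Δ, against 19.0, 27.4 and 23.8 CPM in WT (log2 fold change 1.72 ± 0.13, adjusted p = 4.91e-05). In these 3 genes the lowest tra1Δ library was well above the highest WT library, and the calls were kept in all fits that left out a library. Also among the 12 largest rises were gcd1, annotated as a glucose-6-phosphate dehydrogenase, with 23.2, 40.1 and 35.8 CPM in tra1Δ, against 9.78, 10.6 and 5.98 CPM in WT (log2 fold change 1.90 ± 0.25, adjusted p = 0.00142), and gnr1, a G protein beta subunit gene, with 21.7, 18.2 and 13.0 CPM in tra1Δ, against 4.76, 2.86 and 6.65 CPM in WT (log2 fold change 1.90 ± 0.29, adjusted p = 0.00366). Calls were lost for gcd1 without tra1Δ replicate 3 (adjusted p up to 0.0117) and gnr1 without tra1Δ replicate 1 or 2 or WT replicate 1 (adjusted p up to 0.0211).

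Further genes called higher, chosen after their values were seen, were itr2, plb1, dak1, uro1 and dpe2. The inositol transporter gene itr2 had 682, 688 and 694 CPM in tra1Δ, against 439, 442 and 394 CPM in WT (log2 fold change 0.70 ± 0.08, adjusted p = 0.000529). The lysophospholipase gene plb1 had 3865, 3948 and 3830.1 CPM in tra1Δ, against 1995, 2264 and 1390.5 CPM in WT (log2 fold change 1.05 ± 0.16, adjusted p = 0.00314). The dihydroxyacetone kinase gene dak1 had 509, 542 and 560.3 CPM in tra1Δ, against 322, 343 and 251 CPM in WT (log2 fold change 0.82 ± 0.11, adjusted p = 0.00178). No tra1Δ library of these genes reached down to a WT library. The uricase gene uro1, which acts in purine breakdown, had 111, 92.3 and 103 CPM in tra1Δ, against 61.7, 63.3 and 37.4 CPM in WT (log2 fold change 0.92 ± 0.17, adjusted p = 0.00831). The dipeptidyl peptidase gene dpe2 had 78.0, 81.9 and 70.5 CPM in tra1Δ, against 45.4, 36.5 and 39.6 CPM in WT (log2 fold change 0.93 ± 0.10, adjusted p = 0.000553). The calls of itr2 and dpe2 were kept in all fits that left out a library. Those lost were plb1 without tra1Δ replicate 1, 2 or 3 or WT replicate 1 or in a single fit of all 36 libraries (adjusted p up to 0.124), dak1 without tra1Δ replicate 2 or 3 or WT replicate 1 (adjusted p up to 0.015) and uro1 without tra1Δ replicate 1, 2 or 3 or WT replicate 1 or in a single fit of all 36 libraries (adjusted p up to 0.0439).

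Stress genes changed in both directions. The small heat shock gene hsp9 had 248, 382 and 268 CPM in tra1Δ, against 79.3, 84.6 and 109 CPM in WT (log2 fold change 1.73 ± 0.17, adjusted p = 0.000295). The stress-responsive gene rds1 had 133, 112 and 124 CPM in tra1Δ, against 509, 585 and 248 CPM in WT (log2 fold change −1.85 ± 0.26, adjusted p = 0.002). The groups did not overlap in either gene. Of 23 core stress genes, 3 were called higher (hsp9, sro1 at 0.66 and ish1 at 0.67) and 3 lower (rds1, plr1 at −0.70 and pyp1 at −0.70), the last the tyrosine phosphatase that restrains the Sty1 kinase, with 2 to 7 calls under the alternatives and 2 without tra1Δ replicate 3. The list's median was 0.01 and took either sign under the alternatives. Its summed level was 2683 to 3435 CPM in tra1Δ and 2932 to 3930 CPM in WT, overlapping ranges. The gene of the transcription factor Atf1 had a log2 fold change of −0.42 (adjusted p = 0.0233). No gene of the 20 in the heat shock and chaperone list was called by edgeR or DESeq2, while 5 had an unadjusted p below 0.05 and 1 was called without WT replicate 3, with ssa2 at 0.15 (adjusted p = 0.477). Not kept in all such fits were the calls of rds1 without tra1Δ replicate 1, 2 or 3 or WT replicate 1 (adjusted p up to 0.0197), ish1 without tra1Δ replicate 2 or 3 or WT replicate 1 (adjusted p up to 0.0184), plr1 without tra1Δ replicate 1, 2 or 3 or WT replicate 1 (adjusted p up to 0.0318) and pyp1 without tra1Δ replicate 1 or 3 (adjusted p up to 0.0178).

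Of the regulators of mating and entry into meiosis, ste11 and ste4 were called higher. The gene of Ste11, the HMG-box transcription factor that switches on sexual differentiation, had 53.0, 60.2 and 46.5 CPM in tra1Δ, against 23.0, 21.6 and 28.6 CPM in WT (log2 fold change 1.13 ± 0.14, adjusted p = 0.00095). The gene of Ste4, an adaptor of the pheromone MAP kinase cascade, had 37.7, 57.4 and 55.9 CPM in tra1Δ, against 28.0, 24.5 and 23.6 CPM in WT (log2 fold change 0.99 ± 0.16, adjusted p = 0.00494). Both were higher in every tra1Δ library. The M-factor pheromone precursor gene mfm2 had 18.0, 25.3 and 26.4 CPM in tra1Δ, against 12.8, 10.6 and 10.1 CPM in WT (log2 fold change 1.05 ± 0.18, adjusted p = 0.00689). The gene of Mei2, the RNA-binding protein that commits cells to meiosis, had 50.7, 80.3 and 60.8 CPM in tra1Δ, against 27.2, 41.4 and 15.6 CPM in WT and was not called (log2 fold change 1.18 ± 0.28, adjusted p = 0.0271), though its groups did not overlap. Of the 20 tested genes of the list, ste11 and ste4 were called, 14 lay above 0, and the median was 0.36 (medians of 0.23 to 0.51 and 1 to 4 calls under the alternatives). Calls were lost for ste4 without tra1Δ replicate 2 or 3 or WT replicate 1 (adjusted p up to 0.0319) and mfm2 without tra1Δ replicate 2 or 3 or WT replicate 1 or 2, with the replicate block or in a single fit of all 36 libraries (adjusted p up to 0.0432).

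Markers of the mating types were read beside these genes. The summed level of 10 M-cell markers was 218 to 307 CPM in tra1Δ and 187 to 203 CPM in WT, and that of 5 P-cell markers was 635 to 666 CPM in tra1Δ and 653 to 758 CPM in WT. Of the 6 tested M-cell markers, 4 lay above 0 and 2 below (median 0.59, lowest −0.31), and mfm2 was called. Of the 5 P-cell markers, 4 lay above 0 and 1 below (median 0.09), and edgeR called 0. The M-type mating cassette genes mat3-Mi and mat3-Mc were at 0 counts in every library, and all their windows are shared with other copies. The P-factor receptor gene mam2, an M-cell marker, had 10.1, 27.4 and 29.1 CPM in tra1Δ, against 5.29, 6.30 and 8.81 CPM in WT (log2 fold change 1.73 ± 0.37, adjusted p = 0.0198), and the pheromone-responsive P-cell gene map1 a log2 fold change of 1.05 (adjusted p = 0.0321). The part of the M-cell marker difference in the rises of ste11 and ste4 was not tested, and mfm2 is itself one of the M-cell markers. In RNA from whole cultures, more cells of a type and more RNA per cell cannot be told apart.

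The genes on both sides of tra1 changed in tra1Δ. On chromosome II, mcs2, which encodes the cyclin of the TFIIH kinase, is transcribed towards tra1 and overlaps its annotated 3′ end by 59 bases. It had 4.54, 5.93 and 5.81 CPM in tra1Δ, against 19.7, 20.8 and 28.4 CPM in WT (log2 fold change −2.06 ± 0.21, adjusted p = 0.000325). On the other side ubc7, a ubiquitin-conjugating enzyme gene of endoplasmic reticulum quality control, is transcribed away from tra1, with 269 bases between the annotated starts. It had 233, 207 and 226 CPM in tra1Δ, against 61.4, 69.6 and 60.8 CPM in WT (log2 fold change 1.80 ± 0.08, adjusted p = 1.69e-06). The next genes out were not called, with log2 fold changes of −0.07 for spo14 (adjusted p = 0.58) beyond mcs2 and −0.03 for yar1 (adjusted p = 0.838) beyond ubc7. Of the 10 annotated genes on each side, the only other call was SPBC3H7.05c, 6 genes away, at −0.85 (adjusted p = 0.000465).

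The changes of mcs2 and ubc7 were also present against strains that keep tra1 RNA. The level of mcs2 was 4.54, 5.93 and 5.81 CPM in tra1Δ, against 24.5, 23.1 and 22.4 CPM in tra1-Sptra2 (log2 fold change −2.10 ± 0.17, adjusted p = 7.7e-06). The level of ubc7 was 233, 207 and 226 CPM in tra1Δ, against 77.1, 76.9 and 78.7 CPM in tra1-Sptra2 (log2 fold change 1.52 ± 0.06, adjusted p = 3.95e-09). Both genes were also called in tra1Δ against spt20Δ, with log2 fold changes of −2.25 for mcs2 and 1.51 for ubc7, and against tra1-Sctra1, with −2.14 and 1.49. These comparisons share the tra1Δ libraries. Loss of Tra1 protein and the change of DNA at the locus occur in the same strain and cannot be told apart in tra1Δ against WT for these flanking genes.

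**Figure D3:**
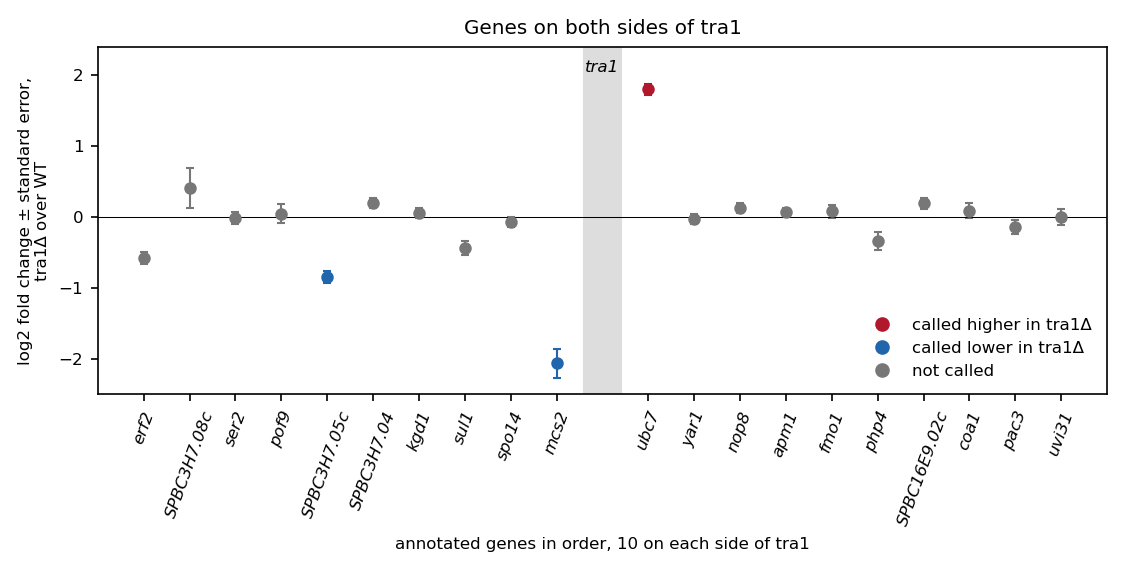
Log2 fold change in tra1Δ over WT (vertical axis, bars ± 1 standard error) of the 10 annotated genes on each side of tra1, in genome order. The 2 adjacent genes changed in opposite directions, mcs2 by −2.06 and ubc7 by 1.80, and spo14 and yar1, the next on each side, lie at −0.07 and −0.03.

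A share of the genes called lower lies near chromosome ends. Of the 120 annotated genes that are the outermost 30 at each end of chromosomes I and II, 54 had enough counts to be tested, 10 were called lower and 2 higher, and 39 of the 54 lay below 0. The 10 genes called lower became 5 without WT replicate 1, 6 without tra1Δ replicate 2 and 17 with DESeq2. Their median log2 fold change was −0.57 (−0.67 to −0.40 under the alternatives), against 0.00 over all genes. These genes made up 12.5% of genes called lower other than tra1, against 1.10% of all genes tested. By end, the medians were −0.79 at the left and −0.93 at the right of chromosome I, −1.45 at the left of chromosome II and 0.00 at its right, which holds gal7 and gal10, the 2 rises. Under the alternatives the median was −0.92 to −0.71 at the left and −1.02 to −0.24 at the right of chromosome I and −1.92 to −0.96 at the left of chromosome II, and took either sign at its right. The value of −0.24 came with at least 10 counts in every library, and that of −0.96 without tra1Δ replicate 3. For grt1, SPBPB10D8.01, SPAPJ695.02, SPBPB21E7.09 and SPAC977.17, the spread within another group exceeded the tra1Δ difference from WT (grt1 2.78 against 2.03). For SPAC750.01, yhb1, cat1, SPAC977.14c and SPBPB10D8.02c, the widest such spread was smaller than that difference (SPBPB10D8.02c 2.33 against 2.69). The log2 measure is given further below, and the part of such variation in the falls near chromosome ends was not tested.

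At the left end of chromosome II, 3 adjacent genes fell together. SPBPB10D8.02c, annotated as an arylsulfatase, had 18.5, 16.8 and 1.62 CPM in tra1Δ, against 78.9, 86.5 and 66.5 CPM in WT (log2 fold change −2.69 ± 0.45, adjusted p = 0.00533). SPBPB10D8.01, a cysteine transporter gene, had 47.5, 30.5 and 12.03 CPM in tra1Δ, against 130.0, 105 and 146 CPM in WT (log2 fold change −2.09 ± 0.34, adjusted p = 0.00486). In both, tra1Δ replicate 3 was lowest, and it was also lowest for grt1, a transcription factor gene of the same end, with 14.7, 13.6 and 5.14 CPM in tra1Δ, against 46.8, 42.1 and 46.0 CPM in WT (log2 fold change −2.03 ± 0.27, adjusted p = 0.00165). The third of the adjacent genes, the asparaginase gene SPBPB21E7.09, had 14.7, 13.4 and 6.76 CPM in tra1Δ, against 31.5, 32.5 and 30.9 CPM in WT (log2 fold change −1.45 ± 0.23, adjusted p = 0.00384), with 58.3% of its windows shared. DESeq2 did not call SPBPB10D8.02c. Leaving out 1 library ended the calls of SPBPB10D8.02c without tra1Δ replicate 1 or 2 or WT replicate 1 (adjusted p up to 0.0246), SPBPB10D8.01 without tra1Δ replicate 2 or WT replicate 1 (adjusted p up to 0.0323), grt1 without WT replicate 1 (adjusted p up to 0.0105) and SPBPB21E7.09 without tra1Δ replicate 2 or WT replicate 1 (adjusted p up to 0.0187).

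At the right end of chromosome I, SPAC750.01, an aldo-keto reductase gene, held 2, 1 and 1 counts in tra1Δ, against 53, 50 and 52 in WT, which is 2.69% of the WT level (95% exact interval 0.724 to 7.02, counting error only). The other SAGA strains had means of 0 CPM in tra1-Sptra2, 0.0944 CPM in spt20Δ, 0 CPM in spt20-HITΔ and 0.439 CPM in tra1-Sctra1, and 32.8% of its windows are shared. At the left end of chromosome I, the aldo-keto reductase gene SPAC977.14c had 95.7, 127 and 88.2 CPM in tra1Δ, against 262, 209 and 303 CPM in WT (log2 fold change −1.31 ± 0.16, adjusted p = 0.000881), with 29.1% of windows shared. The adjacent genes SPAC977.17, of the aquaporin superfamily, and SPAPJ695.02, uncharacterized, had log2 fold changes of −0.79 (adjusted p = 0.00384) and −2.73 (adjusted p = 0.00731). Calls were lost for SPAC977.14c without tra1Δ replicate 1 (adjusted p up to 0.0104), SPAC977.17 without tra1Δ replicate 1 or 3 (adjusted p up to 0.0281) and SPAPJ695.02 without tra1Δ replicate 1, 2 or 3 or WT replicate 1 (adjusted p up to 0.0449).

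Several gene lists held no gene called with edgeR other than tra1. Over all genes tested 2.47% were called, so the absence of calls in a short list says little about it. Besides tra1, the 19 other genes of the SAGA list, which includes TAF genes shared with or belonging to TFIID, lay between −0.16 and 0.38, the highest being ada2 (log2 fold change 0.38 ± 0.10, adjusted p = 0.0373), and the acetyltransferase gene gcn5 and the scaffold gene spt20 had −0.07 (adjusted p = 0.765) and 0.27 (adjusted p = 0.175). The 14 NuA4 genes and the 12 PIKK and TTT genes, the targets and members of the chaperone complex that assembles PIKKs, had medians of 0.01 and 0.03, both of either sign under the alternatives. None of the listed 12 histone genes and regulators, 18 targets of the MBF factor of the G1/S transition, 26 replication checkpoint and repair genes, 22 sterol and oxygen genes or 11 auxotrophy marker genes was called. The lists do not hold every gene of their functions, and mik1, called lower above, was in none of them. In these 8 lists, SAGA, NuA4 and PIKK genes included, DESeq2 and the other alternatives called 0 genes besides tra1. At an unadjusted p below 0.05, 7 of the 19 SAGA genes passed, all higher, with 2 of 14 NuA4, 1 of 12 PIKK and TTT, 5 of 12 histone, 5 of 18 MBF, 7 of 26 replication and repair, 7 of 22 sterol and 3 of 11 marker genes, against 27.0% of all genes tested. Of 16 wtf genes edgeR called 0, DESeq2 1 lower, and 2 had an unadjusted p below 0.05. The single tested gene of the Tf2 retroelements had a log2 fold change of −0.03.

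None of the 138 ribosomal protein genes was called with edgeR, while 1 was called lower with DESeq2 and 2 without WT replicate 3. An unadjusted p below 0.05 was found for 19 (13.8%), all lower, against 27.0% of all genes tested. Of the 138, 132 lay below 0, against 2442 of all 4899 genes tested. The median of the list was −0.16 (−0.24 to −0.11 under the alternatives). Their summed level was 186518 to 224680 CPM in tra1Δ and 210532 to 246831 CPM in WT, overlapping ranges. Among 21 iron and copper genes edgeR called none, DESeq2 called 2 lower and 1 was called without WT replicate 2 or 3. An unadjusted p below 0.05 was found for 11 (52.4%), 10 of them lower, against 27.0% of all genes tested. Of the 21, 17 lay below 0 (median −0.22, and −0.34 to −0.18 under the alternatives). The siderophore transporter gene str1 had 29.98, 28.8 and 13.0 CPM in tra1Δ, against 81.7, 53.6 and 250.0 CPM in WT (log2 fold change −2.42 ± 0.55, adjusted p = 0.0233), without overlap between the strains. The ferroxidase gene fio1 had 16.5, 12.7 and 9.19 CPM in tra1Δ, against 20.5, 25.8 and 42.1 CPM in WT (log2 fold change −1.19 ± 0.29, adjusted p = 0.03).

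**Figure D4:**
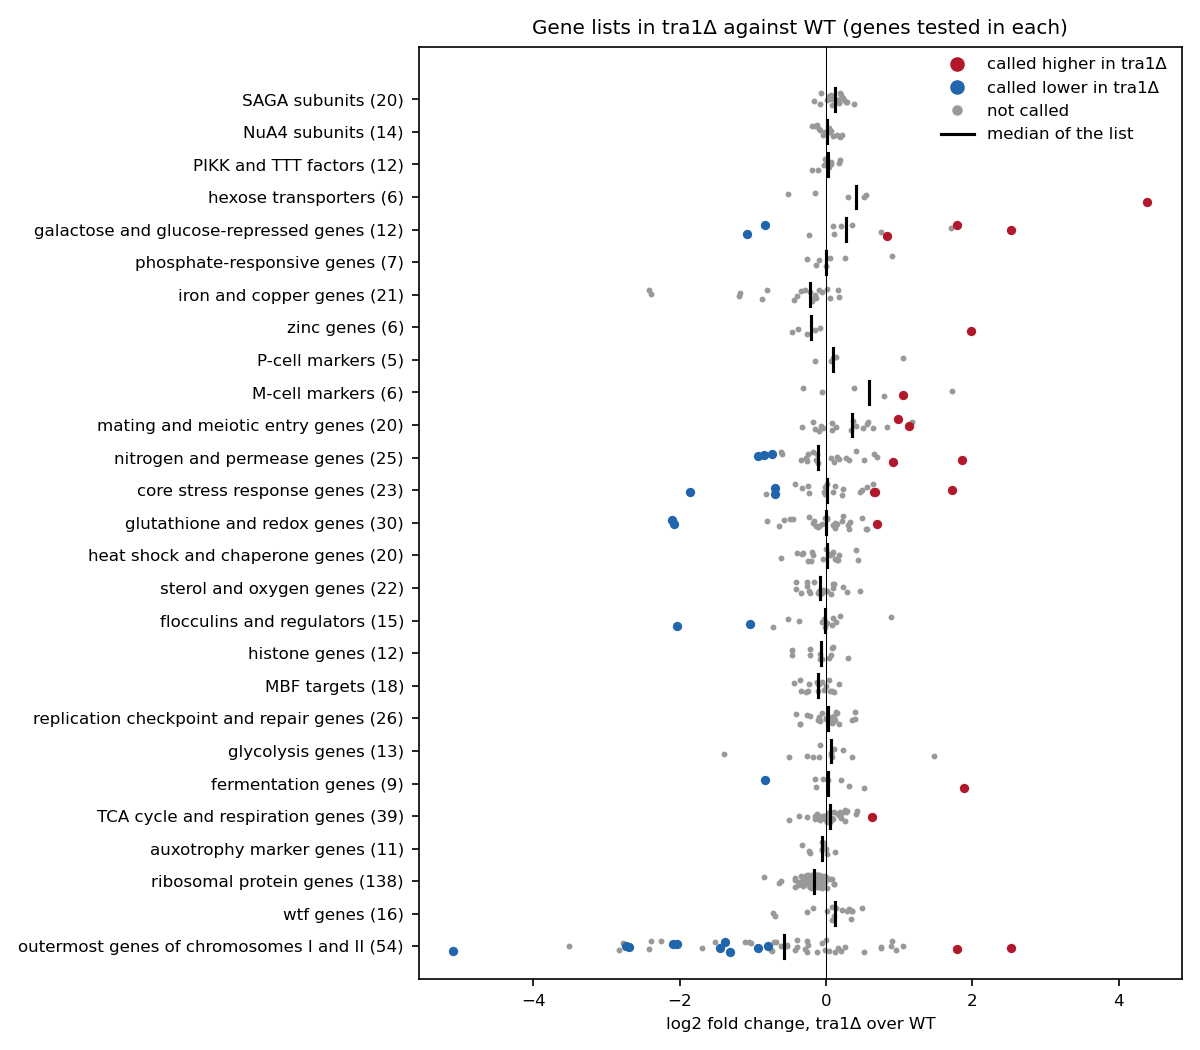
Log2 fold change in tra1Δ over WT (horizontal axis) of the tested members of 27 gene lists, 1 point per gene, with the number tested in brackets and a black line at each list's median. Called genes are red (higher) or blue (lower), tra1 itself is off the scale, and the outermost genes of chromosomes I and II have their median at −0.57 while the ribosomal protein genes sit close together around −0.16.

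Of the genes whose RNA the study names, SPCC569.05c, a spermidine family transporter gene, had 34.8, 37.4 and 28.2 CPM in tra1Δ, against 83.4, 77.0 and 124 CPM in WT (log2 fold change −1.49 ± 0.18, adjusted p = 0.000957), and gst2 was given above. Both calls were kept in all fits that left out a library. SPCC1884.01, uncharacterized, had 8.48, 9.95 and 7.70 CPM in tra1Δ, against 10.4, 12.2 and 8.64 CPM in WT (log2 fold change −0.27 ± 0.20, adjusted p = 0.404), and the asparaginase gene SPAC977.12, with 73.3% of windows shared, had 76.3, 77.8 and 74.1 CPM in tra1Δ, against 78.4, 80.9 and 91.3 CPM in WT (log2 fold change −0.13 ± 0.08, adjusted p = 0.329). The actin gene act1 had a log2 fold change of −0.15 (adjusted p = 0.372). The groups overlapped for SPCC1884.01 and act1.

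The range of log2(CPM + 0.5) over the 3 libraries of each of the 10 other groups was set beside the edgeR log2 fold change. These are unlike measures, and some genes lay near the line, such as gcd1 (1.904 against 1.896). For 34 of the 121 called genes (17 higher and 17 lower), the range in at least 1 group exceeded the size of the fold change. They include isp5, atd1, ste11, mfm2, put1, gcd1 and cbf12 and, near chromosome ends, grt1, SPBPB10D8.01, SPAPJ695.02, SPBPB21E7.09 and SPAC977.17. The widest such spread had a median of 0.79 over the called genes, against 0.44 over all genes tested. By the same measure tra1, cnp3, gst2, obr1, mcs2, ubc7, zym1, gal10 and gal7 differed more between tra1Δ and WT than within any other group.

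Direct comparisons with the other SAGA strains asked which differences from WT are shared with a strain that has a different lesion. Against tra1-Sctra1, 164 of 4897 genes were called in tra1Δ (3.35%), 39 higher (0.796%) and 125 lower (2.55%). The largest falls after tra1 with a level of at least 10 CPM included SPAPB24D3.07c (−2.39), SPBC23G7.10c (−2.25), cnp3 (−2.04) and obr1 (−1.91). For cnp3 the tra1-Sctra1 libraries had 181, 224 and 223 CPM, above all tra1Δ libraries (47.5, 63.9 and 42.8 CPM). The largest rises were of mam2 (2.24) and mfm2 (2.11), followed by gnr1 (2.01) and tsp0 (1.98). For mfm2 the tra1-Sctra1 libraries, at 3.77, 4.46 and 7.54 CPM, also lay below those of WT, at 12.8, 10.6 and 10.1 CPM. The glucose transporter gene ght5 was at 1709, 1702 and 2037 CPM in tra1Δ and 1972, 1643 and 1464 CPM in tra1-Sctra1 (log2 fold change 0.10 ± 0.12, adjusted p = 0.671).

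Against tra1-Sptra2, 36 of 4892 genes were called (0.736%), 18 higher (0.368%) and 18 lower (0.368%). In a single fit of all 36 libraries the count was 12. Among the largest rises were mei2, spk1 and ste11, genes of sexual differentiation. The gene mei2 had 50.7, 80.3 and 60.8 CPM in tra1Δ, against 14.8, 14.1 and 15.2 CPM in tra1-Sptra2 (log2 fold change 2.12 ± 0.16, adjusted p = 4.12e-06). The MAP kinase gene spk1 had 26.5, 46.4 and 28.4 CPM in tra1Δ, against 8.39, 9.55 and 9.99 CPM in tra1-Sptra2 (log2 fold change 1.85 ± 0.21, adjusted p = 0.0003), and ste11 had 53.0, 60.2 and 46.5 CPM in tra1Δ, against 17.9, 18.8 and 16.7 CPM in tra1-Sptra2 (log2 fold change 1.57 ± 0.12, adjusted p = 5.17e-06). Their tra1Δ and tra1-Sptra2 libraries did not overlap. In WT, mei2 had 27.2, 41.4 and 15.6 CPM, spk1 had 17.5, 20.9 and 18.1 CPM and ste11 had 23.0, 21.6 and 28.6 CPM. Each tra1-Sptra2 library of these genes lay below every WT library. The differences thus combine a higher level in tra1Δ and a lower level in the hybrid. The glycolytic gene gpd3 was also higher in tra1Δ (1.75). Apart from tra1 and mcs2, the genes lower in tra1Δ than in tra1-Sptra2 included nep2, a NEDD8 protease gene (−1.68), the glucose transporter gene ght1 (−1.33) and the invertase gene inv1 (−1.29), and none of these 3 was called against WT. The level of nep2 was 7.12, 8.03 and 9.19 CPM in tra1Δ, 24.5, 18.0 and 37.0 CPM in tra1-Sptra2 and 11.5, 7.30 and 8.31 CPM in WT. Each tra1-Sptra2 library was above those of tra1Δ and WT. The level of nep2 was also high in the other hybrid, tra1-Sctra1 (33.4, 28.8 and 36.4 CPM), against which it was called lower in tra1Δ (−2.02). For ght1 and inv1 the tra1Δ means of 8.68 and 12.1 CPM lay between those of tra1-Sptra2 (22.0 and 30.2 CPM) and of WT (5.92 and 3.76 CPM). For cnp3 and gst2 the means were 51.4 ± 11.04 and 48.3 ± 11.04 CPM in tra1Δ, against 58.1 ± 7.93 and 50.3 ± 9.20 CPM in tra1-Sptra2 (SD, n = 3 each), and neither was called (log2 fold changes −0.18 and −0.05).

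Against spt20Δ, 407 of 4913 genes were called (8.28%), 126 higher (2.56%) and 281 lower (5.72%). After spt20 itself, the genes highest in tra1Δ relative to spt20Δ were pex7, SPCC576.17c, a pyridoxine transporter gene (3.16), and gal1. The gene of the peroxisomal import receptor Pex7 had 778, 799.7 and 682 CPM in tra1Δ, against 71.9, 97.8 and 72.1 CPM in spt20Δ (log2 fold change 3.23 ± 0.13, adjusted p = 1.37e-07), while WT had 1429, 1453 and 1152 CPM and pex7 was called lower in tra1Δ against WT (−0.83, adjusted p = 0.00178). The galactokinase gene gal1 had 25.7, 31.9 and 23.1 CPM in tra1Δ, against 2.83, 4.85 and 2.29 CPM in spt20Δ (log2 fold change 3.01 ± 0.25, adjusted p = 1.86e-05). Neither gene had overlapping groups. The acid phosphatase gene pho1 and the oligopeptide transporter gene isp4 were also higher in tra1Δ (2.75 and 3.0), and neither was called against WT. The largest falls after tra1 were in mug147 (−2.87) and SPCC13B11.02c (−2.73), and neither was called against WT. The gene cbm1 was at 236 ± 32.9 CPM in tra1Δ, 48.4 ± 7.20 CPM in spt20Δ and 600.5 ± 75.6 CPM in WT (SD, n = 3 each), so that tra1Δ lay between the other strains. All these comparisons share the tra1Δ libraries.

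**Figure D5:**
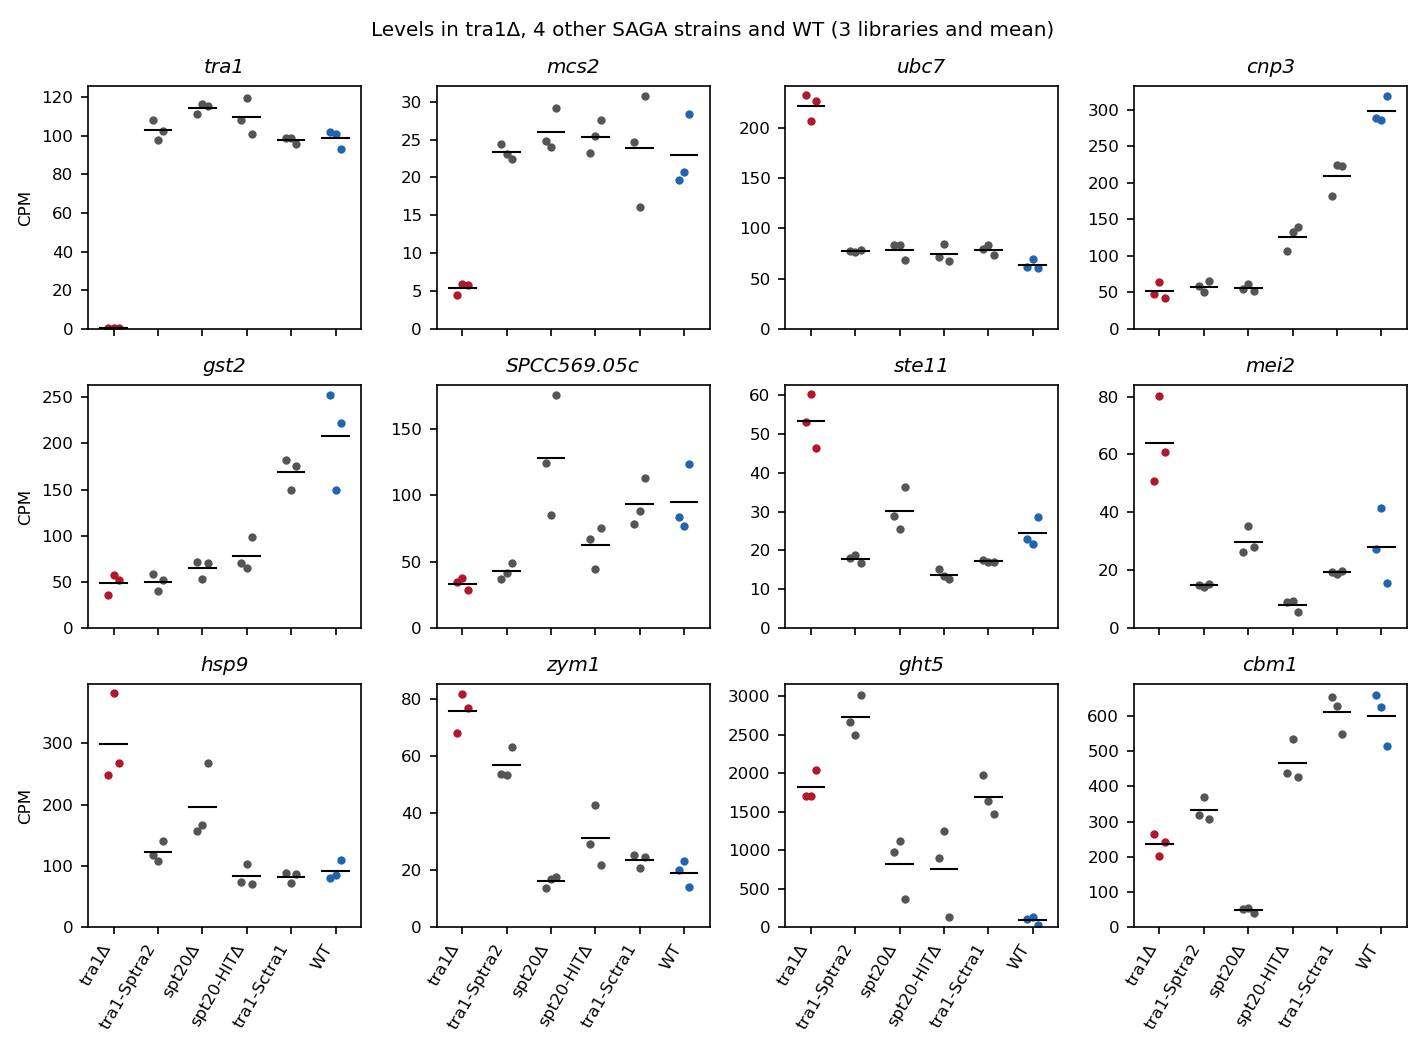
Levels in CPM (vertical axes from 0) of 12 genes in tra1Δ (red), tra1-Sptra2, spt20Δ, spt20-HITΔ and tra1-Sctra1 (grey) and WT (blue), with 3 libraries as points and the mean as a line. The tra1Δ libraries of mcs2 lie below, and those of ubc7 above, all libraries of the other strains, the means of cnp3 and gst2 are lowest in tra1Δ, tra1-Sptra2 and spt20Δ, and those of ste11 and mei2 are highest in tra1Δ.

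The 250 bases upstream of the annotated start of 4 called genes are shown, in lower case, with TATAAA and TGACGT in capitals where they occur on either strand (TTTATA is TATAAA on the other strand). TATAAA is the core of the TATA box to which the TATA-binding protein binds, and TGACGT the core of the site of Atf1 and related factors. The sequences are from the RefSeq genome ASM294v3, on the coding strand of each gene and 5′ to 3′. The first 2 are of cnp3 (minus strand, chromosome II) and gst2 (minus strand, chromosome III), which fell and kept their calls in every fit with 1 library left out. The third is of tsp0 (plus strand, chromosome II), which rose and holds both motifs, and the last is of ubc7 (plus strand, chromosome II), whose window lies in the space between ubc7 and tra1.
cnp3: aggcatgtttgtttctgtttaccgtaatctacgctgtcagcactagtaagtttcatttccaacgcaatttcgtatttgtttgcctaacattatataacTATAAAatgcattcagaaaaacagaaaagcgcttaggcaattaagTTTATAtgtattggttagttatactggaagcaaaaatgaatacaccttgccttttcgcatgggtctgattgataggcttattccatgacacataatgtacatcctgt
gst2: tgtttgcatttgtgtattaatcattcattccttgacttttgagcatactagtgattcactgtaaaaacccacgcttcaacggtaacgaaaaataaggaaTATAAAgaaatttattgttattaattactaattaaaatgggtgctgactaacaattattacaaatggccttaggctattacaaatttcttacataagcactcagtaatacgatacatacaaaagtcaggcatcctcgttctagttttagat
tsp0: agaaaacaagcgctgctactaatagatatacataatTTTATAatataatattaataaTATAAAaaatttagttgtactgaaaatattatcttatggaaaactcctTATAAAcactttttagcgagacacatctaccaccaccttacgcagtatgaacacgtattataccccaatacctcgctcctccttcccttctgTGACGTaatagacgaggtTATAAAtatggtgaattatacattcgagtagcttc
ubc7: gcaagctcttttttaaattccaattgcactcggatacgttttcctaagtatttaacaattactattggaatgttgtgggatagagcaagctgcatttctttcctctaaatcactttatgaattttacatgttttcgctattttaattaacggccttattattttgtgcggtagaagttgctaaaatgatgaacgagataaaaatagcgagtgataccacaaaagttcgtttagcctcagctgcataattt

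Windows from 250 bases before to 50 bases after the annotated start were searched for these motifs in all genes tested. TATAAA was present in 53.8% of 80 genes called lower and 57.5% of 40 genes called higher, against 48.3% of all genes tested. The 95% exact intervals, 42.2 to 65.0% and 40.9 to 73.0%, both included the share of all genes tested. TGACGT was present in 8.75% of genes called lower and 20% of genes called higher (8 of 40), against 5.82% of all genes tested. Its interval among genes called lower, 3.59 to 17.2%, included the share of all genes tested. The interval among genes called higher, 9.05 to 35.6%, lay above that share. The intervals are not adjusted for the number of motifs searched. The 8 genes called higher with TGACGT include tsp0, gut2, plb1, ish1 and tam11. ACGCGT, the core of the MBF site, was found in 0 of 80 genes called lower and in 3.23% of all genes tested. Some of the windows of neighbouring genes overlap, and a match is a string of letters, not a measured binding site. The windows of cnp3, gst2, tsp0 and ubc7 held 2, 1, 4 and 0 matches of TATAAA within the bases printed.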

How the data were processed

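RNA was measured by sequencing of polyadenylated transcripts in 36 libraries, of which the 3 tra1Δ and 3 WT libraries were compared, with 3 libraries each of tra1-Sctra1, tra1-Sptra2 and spt20Δ for direct comparisons. The authors trimmed adapters from 50-base single reads, aligned them with HISAT2 2.1.0 and counted them per gene with HTSeq 0.9.1 (union mode, reverse stranded, minimum alignment quality 10), with versions per the submitters' processing notes, and deposited unnormalized whole-number counts for 5129 genes. The genome build and annotation are not given in the sources used here. The number of columns left unused was 0. RefSeq ASM294v3 gave names, product descriptions, neighbours and promoters, matched 5114 gene IDs (4264 with a symbol), and may differ from the annotation counted. Where over 20% of a gene's 50-base windows have a copy elsewhere, the share is printed, since its counts are uncertain.

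For every comparison, the 6 libraries concerned were fitted in R 4.3.3 with edgeR 4.0.16 (TMM, filterByExpr with a minimum count of 10, two-sided quasi-likelihood F-test, Benjamini-Hochberg adjustment over all genes tested), and the steps were tested on simulated data. The standard error is the size of the log2 fold change divided by the square root of F. Total counts of 4811942 to 9724398 per library leave genes below 10 CPM imprecise, and 5 called genes lie there. The named genes are tra1, the 12 largest rises and 12 largest falls (called, averaging 10 CPM or more, libraries of the strains not overlapping), the genes the study names, SAGA subunits, called list members, neighbours of tra1 and adjacent called genes. Members and lists were chosen with earlier results of these data known. Lists were matched by symbol (pho87, matPc, matPi, matPm, uga2, hmg2, rfl1 and glk1 were not found in the table by name) and are described by counts and medians. Exact intervals cover counting error only, since PCR reads are not independent molecules. Alternatives were DESeq2 1.42.0, RLE scaling, no low-count filter, at least 10 counts in every library, a replicate block, 1 fit over the 36 libraries together and leaving out each library in turn. List medians under these settings and the spread within the 10 other groups were added after seeing the data.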

Additional observations from a re-analysis of the deposited data

How the results depend on the processing

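The number of genes called in tra1Δ against WT was 121, and 183 with DESeq2, 124 with RLE scaling, 124 with no low-count filter, 121 with at least 10 counts in every library, 146 in a single fit of all 36 libraries and 67 to 183 when 1 library was left out. The replicate numbers did not pair the samples (correlations of like-numbered tra1Δ and WT libraries of −0.07, 0.05 and 0.02 over genes, and not every library correlated best with its own number), and the fit with a replicate block called 132. No call changed its direction under any alternative. The count against tra1-Sptra2 was 36, 41 with the replicate block and 12 in the single fit of all 36 libraries. The counts against tra1-Sctra1 (134 to 188) and spt20Δ (294 to 482) stayed within 1.5 times of 164 and 407 under every alternative, with 188 and 385 calls under the replicate block. The share of promoters with ACGCGT among genes lower in tra1Δ was 0.0% of called genes and 5.22% of all genes past the adjusted p whatever the fold. Among the calls, 1 was lost with DESeq2, 12 in the single fit and 8 with the replicate block. The cause of these shifts was not tested.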
